A study of Mus musculus with 4 samples.

Results

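Hmox1, the inducible heme oxygenase, and 9 other antioxidant defence genes were followed across the 4 libraries of a study that knocked down CTCF in cultured mouse cortical cells. The 10 genes were Hmox1, Slc7a11, Gstm1, Mgst1, Prdx1, Nqo1, Gclc, Gclm, Txnrd1 and Srxn1. They were named by symbol and found among the 37437 Ensembl genes of the deposited files through GENCODE vM21, which matched all 10. The set was drawn up because Hmox1 had the most negative log2 change of any coding gene in the comparison of CTCF knockdown with control. The difference between the groups therefore chose Hmox1, and it is given for all 10 genes as a description; where a limma call of one of them is mentioned, it supports nothing.

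RNA came from primary mouse cortical culture. The shCTCF libraries were from cells in which an adeno-associated virus knocked down Ctcf, and the shLAC libraries from cells given the same kind of virus against lacZ, a bacterial gene that mice lack; 2 libraries stood for each. All 4 libraries thus carry a viral knockdown. The labels name no mouse strain, age, viral promoter or time after infection, and do not say whether replicates were separate cultures, so the spread between replicates may be technical.

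Heme oxygenase opens the heme ring and releases carbon monoxide, iron and biliverdin. Cells respond to oxidants and electrophiles largely through NRF2, a transcription factor that KEAP1 keeps low by directing its breakdown and that BACH1 opposes at many of the same antioxidant response elements. Its targets import cystine, build and use the tripeptide glutathione, and run the thioredoxin and peroxiredoxin system that reduces peroxides. In the brain, astrocytes hold much of the NRF2 response and supply neurons with glutathione precursors.

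Values are TPM, a share of transcripts corrected for gene length, so levels can be compared between genes. TPM keeps no sequencing depth, and no counting interval is given. In shLAC replicate 2, predicted loci named Gm and a number, among them abundant satellite-like genes, held 28.0% of TPM, against 9.21% to 11.7% in the other 3 libraries. This lowered its other values, and the median log2 change of coding genes was 0.17 as deposited. Values below were therefore divided by a median-ratio factor taken over 11139 protein-coding genes and are called scaled TPM. Before scaling these genes held 19.2% of TPM in shLAC replicate 2 and 23.7% to 24.8% in the other 3 libraries, so most TPM lay outside them. In these genes Ctcf was at 8.11 and 8.80 scaled TPM in shLAC and at 3.25 and 3.40 in shCTCF. Log2 changes are differences, shCTCF minus shLAC, of log2(scaled TPM + 1), which understates the change of low genes.

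Of the 10 genes, 9 reached 1 TPM in at least 2 libraries and entered the fit, and Nqo1 did not. A limma adjusted p under 0.05 was reached by 4 with a negative change (Hmox1, Slc7a11, Gstm1 and Mgst1) and by 1 with a positive change (Prdx1). Over all 11139 coding genes 3.68% were called lower and 2.83% higher, 6.51% in all. These member calls come from the contrast that chose the set, and nothing is read from their number. In 5 of the 9 the shCTCF libraries were both lower than either shLAC library, and in 2 both were higher, while over all coding genes this held for 27.2% and 27.6%. With 2 libraries against 2, an exact permutation test of a single value cannot go below a 2-sided p of 0.333.

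**Figure D1:**
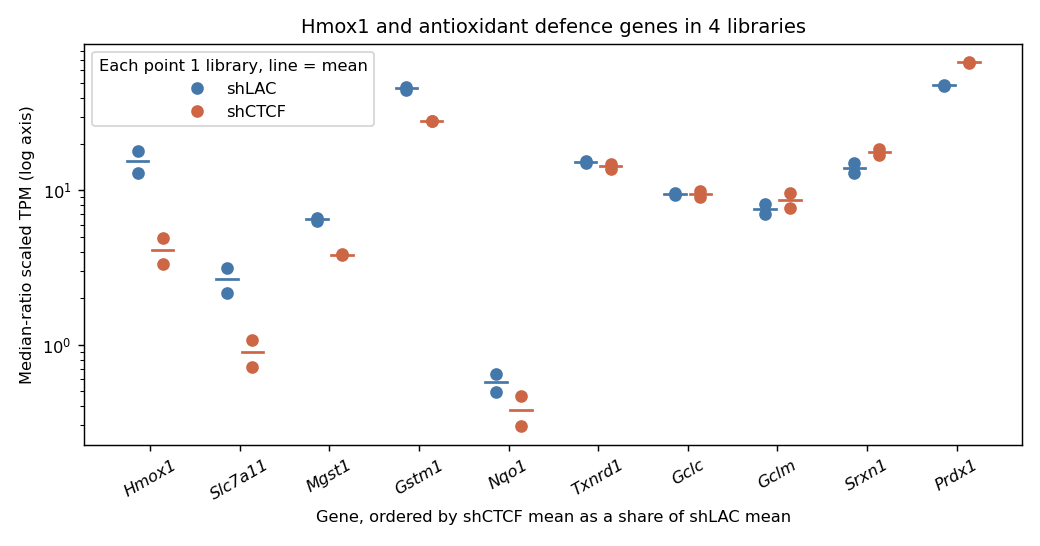
Scaled TPM (vertical, log axis) of the 10 genes in each library, with 1 point per library and a line at the mean of each group. Hmox1 lies at 12.9 and 18.0 in shLAC and at 3.34 and 4.90 in shCTCF, Prdx1 lies higher in shCTCF, and Gclc and Gclm overlap between groups.

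Hmox1 is a protein-coding gene on the + strand of chromosome 8 (ENSMUSG00000005413, GRCm38, 75093621 to 75100589). As deposited, its values were 18.9 and 10.7 TPM in the shLAC libraries and 5.37 and 3.50 TPM in the shCTCF libraries. After scaling these were 18.0 and 12.9 in shLAC and 4.90 and 3.34 in shCTCF. Every shCTCF value was below every shLAC value, and the highest shCTCF value lay 1.24 log2 units below the lowest shLAC value. The group means were 15.5 ± 3.62 and 4.12 ± 1.10 scaled TPM (mean ± SD, n = 2 each), so that shCTCF stood at 26.6% of control, with a log2 change of -1.69 (SE 0.180). The next lowest coding genes were Bola3 at -1.13 and Ctcf itself at -1.13.

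Hmox1 was also among the least even genes within a group. The shLAC libraries differed by 0.45 and the shCTCF libraries by 0.44 on the log2 scale, with replicate 1 the higher in both groups. Only 0.871% of fitted coding genes had a larger difference between the shLAC libraries, and 0.539% between the shCTCF libraries. In mean level Hmox1 sat above 60.8% of the fitted coding genes. None of its read-length words of 101 nt occurred in a transcript of another gene, so no copy shared its reads in full.

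Hmox2, the constitutive heme oxygenase, did not show a like difference. It was at 19.3 and 20.0 scaled TPM in shLAC and at 18.3 and 17.4 in shCTCF (log2 change -0.13, SE 0.0527, limma adjusted p = 0.187), and its sign turned positive in the values as deposited. The ratio of Hmox1 to Hmox2 was 0.932 and 0.645 in shLAC and 0.268 and 0.192 in shCTCF. Hmox1 was thus below Hmox2 in every library, and by more in the shCTCF libraries. In the annotation 42.9% of the read-length words of the longest Hmox2 coding transcript also occur in Cdip1, so the Hmox2 level is uncertain.

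The other genes of heme and iron handling mostly did not pass the test, as held for coding genes at large. Of 34 listed, 29 were fitted, 1 rose, 1 fell and 27 did not pass. Their median log2 change was -0.02 beside 0.00 for all coding genes. Over all coding genes 2.83% were called higher and 3.68% lower, the shares to set beside the count of each list below. Slc48a1, which carries heme out of lysosomes into the cytosol, was at 16.9 and 19.6 scaled TPM in shLAC and at 9.88 and 9.63 in shCTCF. It fell by 0.84 on the log2 scale (SE 0.0750, limma adjusted p = 0.00390). Aco1, the cytosolic aconitase that becomes an iron-responsive RNA-binding protein when it loses its cluster, rose from 9.59 and 10.3 to 14.4 and 14.1 scaled TPM (log2 change 0.48, SE 0.0568, limma adjusted p = 0.00699). The products of heme breakdown are handled by other genes: Blvra, a biliverdin reductase, was at 4.51 and 3.44 in shLAC and 4.16 and 3.75 in shCTCF (limma adjusted p = 0.995). The ferritin heavy chain gene Fth1 was at 400.0 and 418 scaled TPM in shLAC and 427 and 390.2 in shCTCF (limma adjusted p = 0.988). For the ferritin light chain gene Ftl1 the values were 393 and 393, then 421 and 458 (limma adjusted p = 0.158).

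Slc7a11 encodes the transport subunit of the cystine and glutamate exchanger, which feeds glutathione synthesis and releases glutamate; ATF4 as well as NRF2 is known to drive it. Slc7a11 (chromosome 3, 49892526 to 50443614, - strand) was at 3.16 and 2.16 scaled TPM in shLAC and at 1.07 and 0.716 in shCTCF. Both shCTCF values were below both shLAC values, at 33.5% of control (log2 change -0.95, SE 0.147). Of its read-length words 0.362% also occur in Tuba1a, Tuba1b, Gm14150, Gm3226 or Gm3756, and the effect on its level was not tested. Slc7a11 had the lowest fitted level among the 10 genes. Its shLAC replicates differed by 0.39 on the log2 scale, more than in all but 1.28% of coding genes. Its adjusted p rose above 0.05 without shCTCF replicate 2.

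Slc3a2, the heavy chain that pairs with Slc7a11 and with other amino acid transporters, fell from 22.2 and 24.0 to 19.1 and 18.8 scaled TPM (log2 change -0.27, SE 0.0555, limma adjusted p = 0.0397). Slc1a1, the neuronal transporter that takes up cysteine and glutamate, rose from 25.0 and 23.7 to 33.6 and 33.6 scaled TPM (log2 change 0.45, SE 0.0499, limma adjusted p = 0.00603). These transcripts differed in sign, with the exchanger subunits lower and Slc1a1 higher. As deposited, the log2 change was -0.08 for Slc3a2 (limma adjusted p = 0.852) and 0.64 for Slc1a1 (limma adjusted p = 0.166). Slc7a11 is a member, so its difference supports nothing, and no change of a transport route is read from these genes.

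For the enzyme that joins glutamate to cysteine, the first step of glutathione synthesis, transcript values overlapped between the groups. Gclc, its catalytic subunit (chromosome 9, 77754535 to 77794485, + strand), was at 9.41 and 9.69 scaled TPM in shLAC and at 9.96 and 9.08 in shCTCF (log2 change -0.01, SE 0.0631). Gclm, its modifier subunit (chromosome 3, 122245557 to 122270732, + strand), was at 8.12 and 7.07 in shLAC and at 9.63 and 7.75 in shCTCF (log2 change 0.17, SE 0.105). The groups overlapped for both subunits, and the sign of Gclc turned positive in the values as deposited. The ratio of Gclc to Gclm was 1.16 and 1.37 in shLAC and 1.03 and 1.17 in shCTCF.

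Across 27 listed genes of glutathione synthesis and recycling other than the members, 20 were fitted, with a median log2 change of -0.01. Of the 20, 1 rose (Slc1a1), 1 fell (Slc3a2) and 18 did not pass, beside 2.83% higher and 3.68% lower over all coding genes. Gsr, which regenerates reduced glutathione, was at 9.72 and 9.55 scaled TPM in shLAC and at 9.41 and 8.26 in shCTCF (limma adjusted p = 0.368). Gpx4, which reduces lipid peroxides, was at 91.9 and 87.4 in shLAC and at 93.4 and 96.9 in shCTCF (limma adjusted p = 0.346).

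The members that conjugate glutathione were both lower. Gstm1, a cytosolic glutathione transferase of the mu class (chromosome 3, 108012255 to 108017973, - strand), was at 45.0 and 46.7 scaled TPM in shLAC and at 28.2 and 28.3 in shCTCF. The groups were 0.65 log2 units apart at their nearest, and shCTCF stood at 61.6% of control (log2 change -0.68, SE 0.0473). Mgst1, a membrane-bound glutathione transferase and peroxidase (chromosome 6, 138140316 to 138156755, + strand), was at 6.64 and 6.36 in shLAC and at 3.83 and 3.85 in shCTCF, 59.1% of control (log2 change -0.63, SE 0.0612). In contrast to Hmox1 and Slc7a11, replicates of these genes were close, differing by at most 0.05 on the log2 scale. As deposited both were still lower, by 0.49 and 0.47 on the log2 scale, but neither passed there.

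Gstm1 lies in a tandem array of mu class genes, and 7.40% of its read-length words also occur in Gstm3, Gstm2-ps1 or Gm8834, so reads may be divided between copies. Of its fitted neighbours in the array, Gstm4, Gstm5, Gstm6 and Gstm7, none was called lower, where over all coding genes only 3.68% were. Gstm6 was at 1.25 and 1.32 scaled TPM in shLAC and at 0.930 and 0.744 in shCTCF (log2 change -0.32, SE 0.0841, limma adjusted p = 0.0767). Gstm7 rose from 3.51 and 3.82 to 5.07 and 5.05 scaled TPM (log2 change 0.38, SE 0.0667, limma adjusted p = 0.0249), and Gstm5, at 39.2 and 40.4 in shLAC and 41.1 and 41.9 in shCTCF, did not pass (limma adjusted p = 0.482). Of 24 listed transferases other than the members, 11 were fitted (median log2 change -0.07). Among them 1 rose (Gstm7), 1 fell (Gsta4) and 9 did not pass, beside 2.83% higher and 3.68% lower over all coding genes. Gsta4, which conjugates the lipid peroxidation product hydroxynonenal, fell from 13.9 and 13.4 to 10.3 and 9.47 scaled TPM (log2 change -0.43, SE 0.0618, limma adjusted p = 0.0140).

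Prdx1 was higher in shCTCF, where Gstm1 and Mgst1 were lower. Prdx1, a cytosolic peroxidase that thioredoxin reduces (chromosome 4, 116685544 to 116700822, + strand), was at 47.7 and 48.5 scaled TPM in shLAC and at 67.7 and 67.3 in shCTCF, 140.3% of control (log2 change 0.48, SE 0.0445). It had the highest level of the 10 genes and a replicate difference of at most 0.02 log2 units. Srxn1, sulfiredoxin, which repairs over-oxidised peroxiredoxins (chromosome 2, 152105516 to 152111376, + strand), was at 15.1 and 12.9 in shLAC and at 18.7 and 16.8 in shCTCF (log2 change 0.32, SE 0.0844). Its groups did not overlap but lay only 0.15 log2 units apart at their nearest, and it was not among the calls; it was past the threshold with a replicate block (log2 change 0.32) and without shLAC replicate 1 (0.43). Txnrd1, the cytosolic thioredoxin reductase (chromosome 10, 82833951 to 82897712, + strand), was at 15.5 and 15.1 in shLAC and at 14.9 and 13.7 in shCTCF (log2 change -0.09, SE 0.0584), and its sign turned positive in the values as deposited.

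Of the 26 other thioredoxin and peroxiredoxin genes, 25 were fitted, with a median log2 change of 0.02. Among these 2 rose, 1 fell and 22 did not pass, beside 2.83% higher and 3.68% lower over all coding genes. Txnrd2, the mitochondrial thioredoxin reductase, rose from 3.16 and 2.91 to 4.85 and 4.69 scaled TPM (log2 change 0.52, SE 0.0677, limma adjusted p = 0.00945). Prdx5, a peroxiredoxin found in mitochondria, peroxisomes and cytosol, rose from 62.3 and 56.8 to 70.8 and 73.6 (log2 change 0.28, SE 0.0585, limma adjusted p = 0.0431). Msrb2, a mitochondrial methionine sulfoxide reductase, fell from 2.25 and 1.79 to 1.10 and 0.870 TPM as deposited (scaled log2 change -0.72, SE 0.0791, limma adjusted p = 0.00587). Txn1, thioredoxin itself, was at 46.0 and 44.6 in shLAC and at 47.9 and 48.3 in shCTCF (limma adjusted p = 0.314).

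Among 26 genes of superoxide and peroxide removal and of the oxidases, 14 were fitted (median log2 change -0.06). Of the 14, 1 rose and 13 did not pass, beside 2.83% higher and 3.68% lower over all coding genes. Sod1, the cytosolic copper and zinc superoxide dismutase, rose from 102 and 106 to 134 and 127 scaled TPM (log2 change 0.33, SE 0.0520, limma adjusted p = 0.0176).

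Nqo1, a quinone reductase and a common readout of NRF2 activity (chromosome 8, 107388225 to 107403206, - strand), was too low to be fitted. It was at 0.649 and 0.493 scaled TPM in shLAC and at 0.465 and 0.296 in shCTCF. The shCTCF values were the lower ones, but every value was under 1 TPM.

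The genes that control NRF2 were fitted for 14 of 16 listed, with a median log2 change of 0.12. Of the 14, 1 rose and 13 did not pass, beside 2.83% higher and 3.68% lower over all coding genes. Nfe2l2, which encodes NRF2, was at 4.32 and 3.78 scaled TPM in shLAC and at 3.51 and 3.23 in shCTCF (log2 change -0.21, SE 0.0796, limma adjusted p = 0.176). Keap1 was at 9.44 and 9.24 in shLAC and 10.6 and 10.7 in shCTCF (limma adjusted p = 0.114), and Bach1, the repressor of Hmox1, was at 3.58 and 3.25 in shLAC and 3.84 and 3.91 in shCTCF (limma adjusted p = 0.265). Gsk3b, a kinase that among many roles marks NRF2 for breakdown, rose from 25.8 and 26.5 to 34.5 and 35.0 scaled TPM (log2 change 0.40, SE 0.0468, limma adjusted p = 0.00699). These are transcript levels, and the amount or activity of the proteins was not measured.

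Of 36 listed NRF2 targets outside the 10 genes, 24 were fitted. Among them 0 rose, 4 fell and 20 did not pass, beside 2.83% higher and 3.68% lower over all coding genes. Of the 24 changes 18 were negative, beside 50.1% over all coding genes, and the median was -0.04. The 4 that fell were Gsta4, Slc3a2, Ephx1 and Idh1. Ephx1, the microsomal epoxide hydrolase, fell from 13.5 and 13.1 to 10.7 and 9.72 scaled TPM (log2 change -0.35, SE 0.0625, limma adjusted p = 0.0255). Idh1, the cytosolic isocitrate dehydrogenase that makes NADPH, fell from 33.2 and 33.6 to 29.0 and 27.7 (log2 change -0.23, SE 0.0492, limma adjusted p = 0.0435). At an unadjusted limma p under 0.05, 9 of the 24 targets differed in either direction, beside 23.9% of all coding genes.

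The 7 lists together held 177 genes, of which 128 were fitted, 7 rose, 6 fell and 115 did not pass. Thus 5.47% rose and 4.69% fell, beside the 2.83% and 3.68% over all coding genes, and the median log2 change was -0.01 beside 0.00. The lists became 12 higher and 10 lower without shLAC replicate 1, 4 higher without shCTCF replicate 1 and 2 lower without shCTCF replicate 2. In the values as deposited 1 rose and 1 fell, and over all coding genes 67.9% of 156 calls were then higher, against 43.4% of 725 after scaling. The calls of Slc48a1, Aco1, Slc1a1 and Gsk3b were lost in the values as deposited and in no other setting tried, and Msrb2 was called in each setting in which it was fitted. That of Txnrd2 was lost over all genes after median-ratio scaling. Calls of Gsta4, Ephx1, Sod1, Gstm7, Prdx5, Idh1 and Slc3a2 were lost there and as deposited, and all but that of Gsta4 with no filter. Without the trended prior Idh1, Prdx5 and Slc3a2 lost their calls, and with quantile normalization Idh1 and Prdx5 did. Those of Gsta4 and Ephx1 were lost without shCTCF replicate 2, that of Sod1 without shCTCF replicate 1, and those of Gstm7, Prdx5, Idh1 and Slc3a2 without either shCTCF library; Idh1 and Slc3a2 were also lost without shLAC replicate 2.

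**Figure D2:**
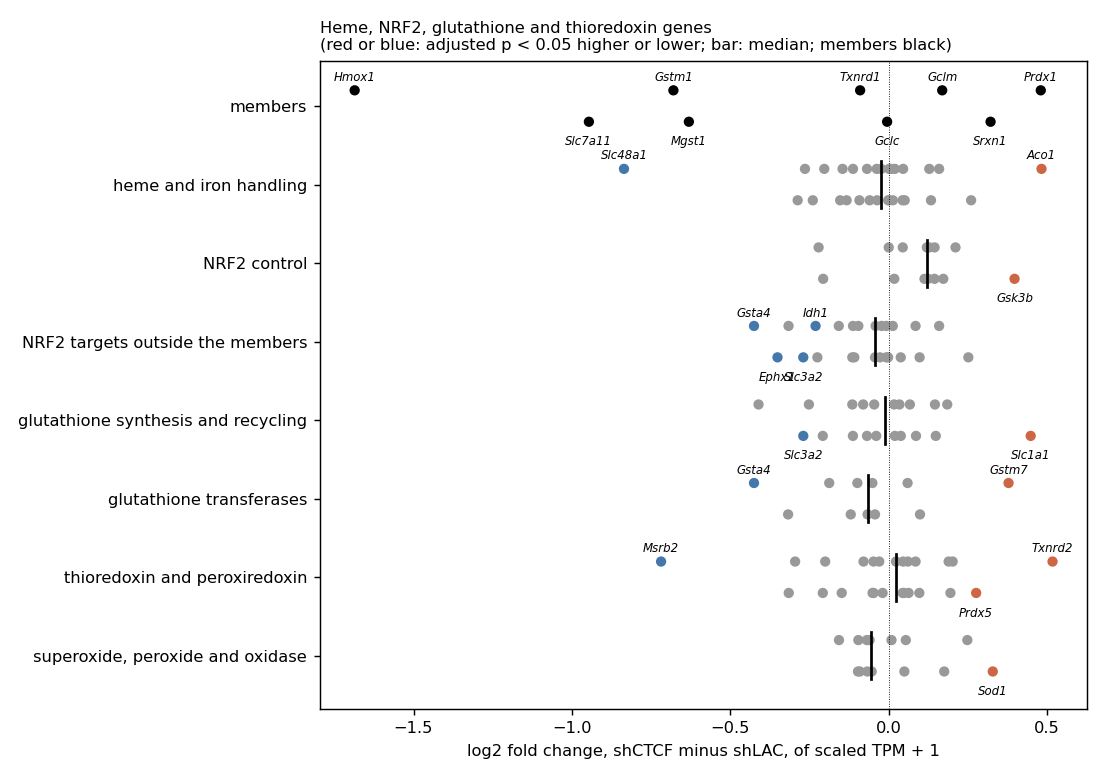
Log2 change, shCTCF minus shLAC, of log2(scaled TPM + 1) (horizontal) for each fitted gene of the members and of the 7 lists (vertical), with 1 point per gene and a bar at each list's median. Members are black; list genes at a limma adjusted p under 0.05 are red where higher and blue where lower. Hmox1 at -1.69 lies beyond every list gene, which its choice as the most negative coding gene fixed. The list medians run from -0.07 to 0.12.

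Promoter sequence was looked at because members on both sides of the comparison are NRF2 targets. RefSeq promoters on GRCm38.p6, from 250 bases before to 50 after the start, were at hand for 8 of the 10 genes, in 12 windows, not for Hmox1 and Gclc. The core of the antioxidant response element was searched as TGACNNNGC and TGAGNNNGC on both strands, and matches are in capitals. The windows shown, written 5′ to 3′ along the gene, are those of Slc7a11 and Mgst1, called lower, of Prdx1, called higher, and of Srxn1, which was not called but had both shCTCF values above both shLAC values; each held a match.
Slc7a11: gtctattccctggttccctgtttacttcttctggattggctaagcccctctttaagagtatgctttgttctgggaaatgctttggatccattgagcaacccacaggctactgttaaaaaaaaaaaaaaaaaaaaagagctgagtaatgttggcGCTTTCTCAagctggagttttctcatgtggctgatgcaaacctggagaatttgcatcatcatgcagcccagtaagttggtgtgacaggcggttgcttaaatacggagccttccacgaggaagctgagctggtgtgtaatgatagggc
Mgst1: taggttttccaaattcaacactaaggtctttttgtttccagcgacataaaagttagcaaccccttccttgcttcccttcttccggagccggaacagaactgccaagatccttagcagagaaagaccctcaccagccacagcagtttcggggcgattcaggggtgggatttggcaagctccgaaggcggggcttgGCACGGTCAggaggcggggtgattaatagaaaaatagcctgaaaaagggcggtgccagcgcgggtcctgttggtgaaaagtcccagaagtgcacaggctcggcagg
Prdx1: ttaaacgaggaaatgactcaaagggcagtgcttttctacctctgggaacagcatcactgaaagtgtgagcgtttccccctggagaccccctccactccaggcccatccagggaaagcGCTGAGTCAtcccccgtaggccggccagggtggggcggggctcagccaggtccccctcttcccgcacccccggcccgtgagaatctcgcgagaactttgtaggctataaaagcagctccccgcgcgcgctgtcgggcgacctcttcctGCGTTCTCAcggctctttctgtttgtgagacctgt
Srxn1: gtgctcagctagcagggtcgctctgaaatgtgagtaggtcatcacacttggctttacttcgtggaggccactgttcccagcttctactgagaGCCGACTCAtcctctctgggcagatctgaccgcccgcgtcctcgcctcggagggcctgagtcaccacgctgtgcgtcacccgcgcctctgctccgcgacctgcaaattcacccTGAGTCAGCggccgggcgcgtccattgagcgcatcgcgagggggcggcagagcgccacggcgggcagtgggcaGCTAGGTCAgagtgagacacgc

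The Slc7a11 window was chr3:50443564-50443863 on the - strand, and its match GCTTTCTCA began 97 bases before the start. The Mgst1 window shown was chr6:138140277-138140576 on the + strand, with GCACGGTCA 56 bases before the start. A further Mgst1 window, chr6:138141337-138141636, held 0 matches. The Prdx1 window was chr4:116685349-116685648 on the + strand, with GCTGAGTCA 133 bases before the start and GCGTTCTCA after it. The Srxn1 window, chr2:152105274-152105573 on the + strand, held 3 matches, of which TGAGTCAGC began 45 bases before the start. At least 1 match was found in 6 of the 12 windows, for 6 of the 8 genes. Gclm and Txnrd1 were the others, and Gstm1 and Nqo1 had none. Mgst1 and Txnrd1 had more than 1 window each and a match in only 1 of them, which raises the count by gene. Of 32851 promoter windows of the same length, 12.4% held TGACNNNGC, 17.6% TGAGNNNGC and 27.8% either. These shares are per window and not per gene. Matches were thus present in members that were lower, higher and overlapping. A match is a description of these letters and not evidence of a site.

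Cell type markers were read beside these values, since bulk RNA cannot tell fewer cells of a type from less RNA per cell. Neuron markers were abundant: all 16 were fitted, and their summed scaled TPM was 1382 and 1417 in shLAC and 1472 and 1445 in shCTCF, 104% of control. Their changes were positive for 14 and negative for 2, where 50.1% of all coding genes were negative, with a median of 0.11. In 11 both shCTCF values were above both shLAC values, and in 1 both were below, beside 27.6% and 27.2% of all coding genes. Among the neuron markers Slc32a1 rose (log2 change 0.36, SE 0.0761, limma adjusted p = 0.0417) and Rbfox3 rose (0.25, SE 0.0529, limma adjusted p = 0.0420), and 14 did not pass. Astrocyte markers, 16 of 18 fitted, summed to 267 and 231 in shLAC and to 228 and 187 in shCTCF, 83.1% of control. Their changes were negative for 13 of the 16, beside 50.1% of all coding genes, with a median of -0.23. In 6 both shCTCF values were below both shLAC values, and in 1 both were above, beside 27.2% and 27.6% of all coding genes. Aqp4, the astrocyte water channel, fell (log2 change -1.07, SE 0.149, limma adjusted p = 0.0120), as did the glial glutamate transporter Slc1a3 (-0.52, SE 0.0807, limma adjusted p = 0.0170), and 14 did not pass. As deposited, Aqp4 was at -0.93 and still called, and Slc1a3 was at -0.32 and not called (limma adjusted p = 0.645). Over all genes after median-ratio scaling, and with no filter, none of Aqp4, Slc1a3, Slc32a1 and Rbfox3 was called. Single fitted astrocyte markers stood between 36.9% (Aqp4) and 121% (Sox9) of control. Hmox1 at 26.6% and Slc7a11 at 33.5% lay below all of them, and Gstm1 and Mgst1 lay within their range. Hmox1 was chosen for the most negative log2 change of any coding gene, so nothing is read from its place. Hmox1, Slc7a11, Gstm1 and Mgst1 are known to be expressed in astrocytes among other cells, and the part of the astrocyte markers in their difference was not tested.

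Microglia and macrophages can express Hmox1 strongly. Their marker Cd68, a lysosomal protein that other cells express too, was at 2.08 and 1.80 TPM as deposited in shLAC and at 2.02 and 1.71 in shCTCF. After scaling both its shCTCF values were below both shLAC values, as in 27.2% of all coding genes. Scaled Cd68 stood at 83.7% of control and did not pass (limma adjusted p = 0.247 in the scaled fit). C1qb and Tyrobp were listed at 0 in all 4 libraries. No endothelial or mural marker and no erythroid marker exceeded 0.51 TPM in any library. Of 8 fibroblast markers 2 were fitted, 1 with a negative and 1 with a positive change. Dcn fell (log2 change -0.48, SE 0.0774, limma adjusted p = 0.0182). The other stood at 102% of control and did not pass, and the summed scaled TPM of the list was at 97.4% of control. Of 12 oligodendrocyte lineage markers 8 were fitted and 0 passed at an adjusted p under 0.05 by limma, with 1 at an unadjusted p under 0.05. The most abundant was Olig1, a transcription factor of that lineage, at 35.0 and 29.2 scaled TPM in shLAC and 36.0 and 33.6 in shCTCF (limma adjusted p = 0.447). Olig2, its partner gene, was at 14.02 and 12.7 in shLAC and 13.4 and 13.5 in shCTCF (limma adjusted p = 0.949). The calls of Slc32a1 and Rbfox3 were lost without either shCTCF library, and that of Dcn without shCTCF replicate 2.

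**Figure D3:**
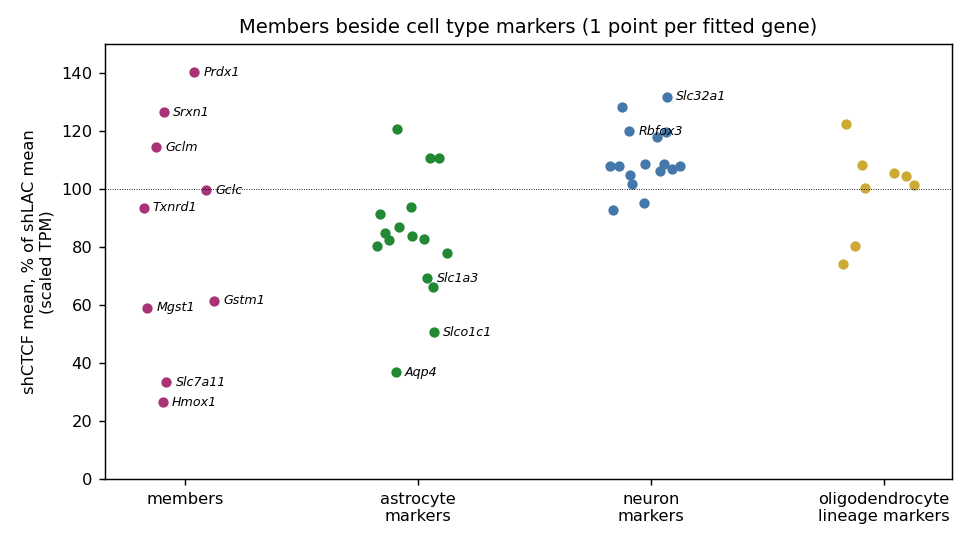
Mean scaled TPM of shCTCF as a percent of the shLAC mean (vertical) for each fitted member and each fitted marker of astrocytes, neurons and the oligodendrocyte lineage, with 1 point per gene and a dotted line at equality. Hmox1 (26.6%) and Slc7a11 (33.5%) lie below Aqp4 (36.9%), the lowest astrocyte marker, while Prdx1 (140.3%) lies above the highest neuron marker, Slc32a1 (132%). Hmox1 was chosen for the most negative log2 change of any coding gene, so its place is not a result.

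CTCF binds insulator sites between neighbouring genes, so the genes around each member were compared. Within 500 kb of the Hmox1 start 4 coding genes were fitted. Mcm5, a replication helicase subunit whose start lies 16 kb downstream, was at 2.56 and 2.74 scaled TPM in shLAC and at 2.74 and 3.07 in shCTCF (limma adjusted p = 0.476). Tom1, an endosomal sorting protein 60 kb upstream, was at 5.99 and 5.78 in shLAC and 5.74 and 5.85 in shCTCF (limma adjusted p = 0.871). Hmgxb4, 100 kb upstream, did not pass either (limma adjusted p = 0.329). Rasd2, a small GTPase gene 120 kb downstream, rose from 2.05 and 2.30 to 3.01 and 3.75 (log2 change 0.46, SE 0.0980, limma adjusted p = 0.0435), a call that was lost without shCTCF replicate 2. The Rasd2 call was also lost over all genes after median-ratio scaling and with no filter. None of the 4 neighbours was called lower, where over all coding genes only 3.68% were. Around the members as a whole, 78 neighbouring genes within 500 kb were fitted, and 3 rose and 3 fell. Over all coding genes 2.83% were called higher and 3.68% lower, so nothing about the neighbours is read from these counts.

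**Figure D4:**
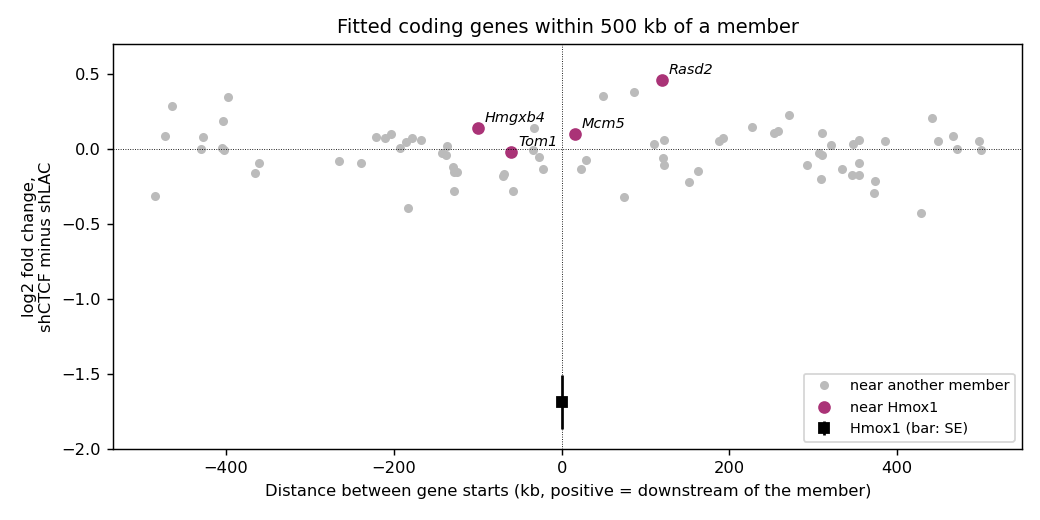
Log2 change, shCTCF minus shLAC (vertical), of fitted coding genes against the distance in kb between their start and that of the member they neighbour (horizontal). Hmox1 lies at -1.69 (square, bar 1 SE), and its 4 neighbours lie between -0.02 (Tom1) and 0.46 (Rasd2).

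The coding genes whose values across the 4 libraries were most like those of Hmox1 were picked by the root mean square difference between log2 profiles centred on their means, among genes with a mean of at least 5 TPM. In order they were Bola3, a mitochondrial factor that helps load iron-sulfur clusters onto proteins (0.318), the mitochondrial pyrophosphatase gene Ppa2 (0.340), the potassium channel subunit gene Kcnf1 (0.382), Ctcf (0.383) and the phosphatase gene Mdp1 (0.403). The measure rests on 4 libraries and mostly on the step between the groups, and each of these genes was lower in both shCTCF libraries than in either shLAC library. It says nothing of shared control.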

How the data were processed

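RNA from the 4 libraries was sequenced as paired reads of 101 nt, per the labels' protocols. The deposited files give TPM per Ensembl gene; per the submitters' processing notes, RSEM 1.2.28, CASAVA and mm10 were used, in an order they do not give. Annotation release, aligner settings and use of strand were not given in the sources used here, so antisense partners cannot be separated. GENCODE vM21 (GRCm38) matched 37060 of 37437 identifiers.

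Protein-coding genes of at least 300 nt, not named Gm and a number, that reached 1 TPM in 2 or more libraries (11139) were scaled by median ratios and fitted as log2(scaled TPM + 1) with limma 3.58.1 in R 4.3.3 (trended prior, no covariate, Benjamini-Hochberg at 0.05). The 10 genes and all lists were chosen with earlier results of these data known. Genes named were Ctcf, the members, Hmox2, up to 6 called genes per list and direction (or, with none called, the most abundant), Hmox1's neighbours and the 5 genes most like it; Nfe2l2, Keap1, Bach1, Blvra, Fth1, Ftl1, Gsr, Gpx4, Gstm4, Gstm5, Gstm6, Txn1 and Sox9 were added for their roles or after values were seen. Alternatives changed scaling, gene set, filter, pseudocount, prior, replicate block and libraries. A marker that the lists would name is not reported here.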

Additional observations from a re-analysis of the deposited data

How the results depend on the processing

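Hmox1 was lower in all 14 alternatives, with a log2 change from -1.92 to -1.46 when 1 library was left out and -1.89 with a pseudocount of 0.1. Over all genes after median-ratio scaling it was -1.69 and no longer past the threshold. No named gene was called with opposite signs; Slc7a11 was not past the threshold in 3 alternatives, Gstm1, Mgst1 and Prdx1 in 2 each, and Srxn1 came past it in 2.

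The counts of coding genes called moved more. The 315 higher and 410 lower became 106 and 50 in coding genes as deposited, with 1 and 1 in the 7 lists. Over all genes as deposited there were 246 and 116, with 1 and 1 in the lists, and over all genes scaled 47 and 87, with 3 and 2. With a floor of 5 TPM on the mean, which leaves fewer genes, they were 195 and 240, and with no filter 86 and 159, with 4 and 3 in the lists. With 1 library left out they ran from 77 to 525 higher and from 144 to 623 lower, and in the lists from 4 to 12 higher and from 2 to 10 lower; the lone library of a group is then assumed to vary like the other group. Where none of these settings shows why by its construction, the cause was not tested.

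Libraries share replicate numbers across groups, but nothing in the labels says that a number marks a shared culture, and with 2 pairs the check (correlation of same-numbered deviations 0.251) does not settle it. A replicate block gave 641 higher and 765 lower coding genes and 10 higher and 14 lower list genes. It left the Hmox1 change at -1.69, with an SE of 0.0547 beside 0.180 without the block. TPM keeps no depth, so precision rests on 2 libraries per group.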
